A study of Homo sapiens with 288 samples.

Results

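Collagens are proteins of the extracellular matrix built from chains wound into a triple helix, and each chain is the product of its own gene. The collagen genes described here are the genes of the expression table whose symbol is COL, a number, A and a number, which gave 39 of 17492 genes. The fibril-forming chains (types I, II, III, V, XI, XXIV and XXVII) assemble into the fibres of connective tissue. Type IV chains form the sheet-like network of basement membranes, the layer on which endothelium rests, and the FACIT chains attach to the surface of fibrils. In the developing vessel wall, types IV, XV and XVIII are known as basement membrane collagens.

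The table came from single cells made from H1, an established human embryonic stem cell line, and captured on the Fluidigm C1, a microfluidic device that lyses each cell in its own chamber and yields full-length cDNA. The endothelial cells (EC) had been made in E8 medium with BMP4 at 5 ng/ml and Activin A at 25 ng/ml during 2 days, followed by VEGF and WNT during 3 days. The trophoblast-like cells (TB) had been made in E7, which is E8 without FGF2, with BMP4 at 50 ng/ml and SB431542, an inhibitor of the TGF-beta and Activin receptors, and the length of that treatment is not given in the sources used here. The cDNA of 45 EC and 51 TB cells was made into libraries in 3 experiments (EQ, EQ-Vary and EQ-75%), each with an equal cDNA input per cell. The pooled volume was varied between cells in EQ-Vary, and EQ-75% had the lowest median depth. No separate cultures are named, so EC and TB are 1 sample each. Values therefore carry the SD over cells and no p-value.

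The limits of the study left 38 EC and 48 TB cells of EQ. In EQ-Vary 38 EC and 46 TB cells were left, and EQ-75% kept 39 and 50. The total count of the passing cells in EQ ran from 365536 to 3966798. Levels are given as CPM, where the rounded expected counts of each cell sum to 1000000. The labels were checked against marker genes. Of 14 endothelial markers with a mean of at least 1 CPM, 13 were at least 4-fold higher in EC, and of 12 trophoblast markers, 7 were at least 4-fold higher in TB. The other 5 were GATA2, GATA3, TFAP2A, CGA and ELF5, and GATA3 had 120.0 CPM in EC and 236 in TB. Among 11 mesenchymal or mural markers tested of 14 listed, 3 were higher in TB and 2 in EC. LUM and DCN, proteoglycans of fibrillar matrix, had means of 3042 and 429 CPM in TB, and THY1 and RGS5 had 708 and 794 CPM in EC, while POSTN was at 0 in both. The summed level of that list ran from 248 to 2891 CPM in EC cells and from 532 to 10098 CPM in TB cells. The part of such cells in the collagen levels below was not tested.

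Collagen genes made up 0.190% of the counts of an EC cell and 0.243% of those of a TB cell. Their summed level was 1902 ± 808 CPM in EC (SD over 38 cells) and 2432 ± 1018 CPM in TB (SD over 48 cells). The sums of single cells overlapped widely, from 301 to 4307 CPM in EC and from 694 to 6846 CPM in TB. Of the 39 genes, 22 had a mean of at least 10 CPM in EC or TB, 9 had a mean between 1 and 10 CPM, 6 were detected below 1 CPM, and COL5A3 and COL20A1 were at 0 in every passing cell of EQ. The 3 most abundant collagen genes held 75.4% of the collagen counts in EC and 53.8% in TB.

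EC and TB cells differed in which collagen genes they used. A gene was called higher in a cell type when the ratio of the mean CPM was at least 4 and the mean was at least 1 CPM in EC or TB, and 31 collagen genes reached that level. Of these, 10 were higher in EC, against a background of 10.8% of 12751 genes, and 10 were higher in TB, against a background of 16%. Together 20 of 31 collagen genes were called in either direction, where 26.8% of all genes were. The median ratio of EC to TB was 0.50 on the log2 scale over the 31 collagen genes and -0.07 over all genes. The median size of the ratio without its sign was 3.21 for the collagen genes and 0.91 for all genes on the log2 scale.

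**Figure D1:**
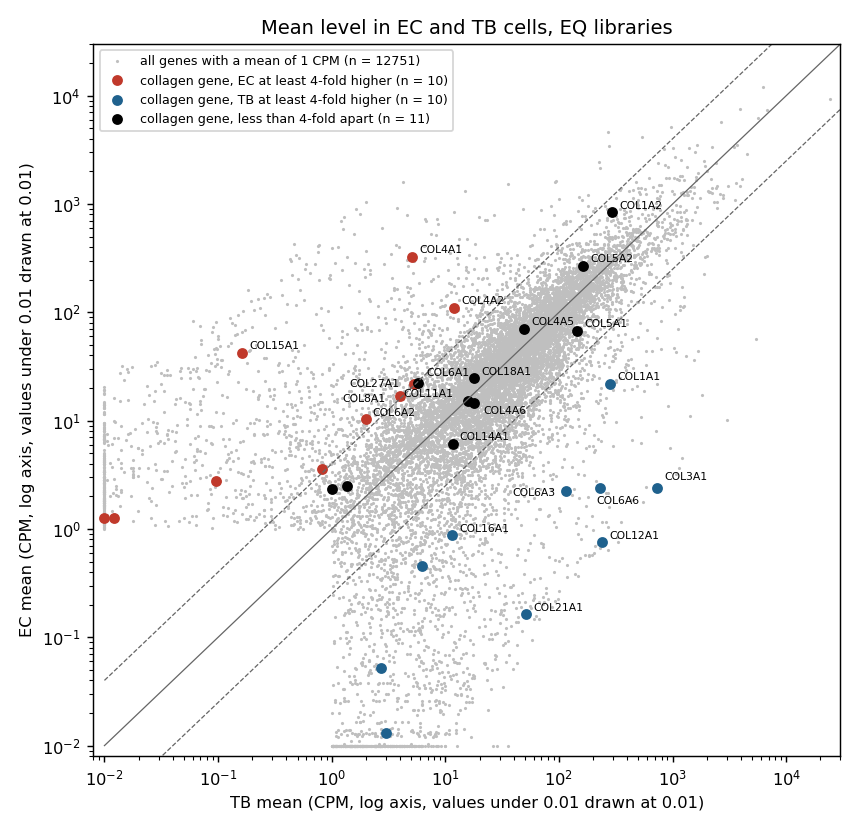
Mean level of each gene in TB cells (horizontal, CPM, log axis) and in EC cells (vertical, CPM, log axis) in the EQ libraries, with all genes in grey and the collagen genes as large points, red where called higher in EC, blue where called higher in TB and black otherwise. The dashed lines mark a 4-fold ratio, and 20 of the 31 collagen genes lie beyond them, 10 on each side.

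The order of the levels was taken per kilobase of the longest protein-coding transcript, since longer transcripts give more reads. In EC the highest levels were those of COL1A2 at 166 CPM per kilobase, COL4A1 at 49.8, COL5A2 at 39.4 and COL4A2 at 17.1. In TB they were COL3A1 at 134 CPM per kilobase, COL1A2 at 58.0, COL1A1 at 47.3 and COL6A6 at 26.5. COL1A2 was the highest collagen gene per kilobase in 27 of 38 EC cells and COL4A1 in 5. COL3A1 was the highest in 35 of 48 TB cells and COL1A2 in 7. The spread between cells of neighbouring genes overlapped in both orders, and the orders depended on the length used. With the length of all exons together, COL5A2 was above COL4A1 in EC, COL15A1, COL5A1 and COL4A5 were above COL4A2, and COL1A1 was above COL1A2 in TB. The first 10 genes were the same with both lengths, and of the first 5, 3 were shared in EC and 5 in TB.

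The type IV genes were the second largest class in EC, with a summed level of 521 ± 330 CPM (SD, n = 38), against 85.5 ± 86.1 CPM in TB (SD, n = 48). They made up 27.4% of the collagen counts in EC and 3.52% in TB. Of the 6 genes, COL4A1 and COL4A2 were higher in EC, COL4A5 and COL4A6 were not 4-fold apart, and COL4A3 and COL4A4 stayed below 1 CPM. COL4A1 and COL4A2 encode the chains of the common basement membrane network, and the other 4 encode those of more specialized membranes. Type IV genes lie in head-to-head pairs. COL4A1 (minus strand) and COL4A2 (plus strand) share chromosome 13, COL4A4 and COL4A3 share chromosome 2, and COL4A6 and COL4A5 share the X chromosome.

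Between the RefSeq starts of COL4A1 and COL4A2 lie 126 bases, chr13:110307158-110307283 of GRCh38, which are upstream of both genes. They are shown because both genes of this pair were higher in EC. Some GENCODE transcripts of COL4A2 start within COL4A1, with no exon base in common. The starts of COL4A6 and COL4A5, a pair without a 4-fold ratio, are 379 bases apart, and the 250 bases before COL4A5, chrX:108439588-108439837, are shown for comparison. Both are given on the plus strand, with matches to CCAAT and GGGCGG on either strand in capitals.
COL4A1-COL4A2: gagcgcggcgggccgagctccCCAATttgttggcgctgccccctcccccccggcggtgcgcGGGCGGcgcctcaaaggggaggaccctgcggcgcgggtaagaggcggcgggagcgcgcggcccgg
COL4A5: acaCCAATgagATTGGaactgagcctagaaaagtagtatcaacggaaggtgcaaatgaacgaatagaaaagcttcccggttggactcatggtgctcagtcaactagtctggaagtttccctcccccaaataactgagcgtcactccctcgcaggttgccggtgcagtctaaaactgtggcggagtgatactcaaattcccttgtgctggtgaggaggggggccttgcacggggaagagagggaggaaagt
The first holds 1 CCAAT and 1 GGGCGG, where 21.1% and 34.6% of the 35116 RefSeq promoter windows of the same length hold at least 1. The second holds 2 CCAAT, where 32.01% of windows of its length hold at least 1, and 0 GGGCGG, which 42.6% hold. No TATAAA was found in either. The G and C content was 80.2% in the first and 51.2% in the second, where the medians over windows of the same lengths were 60.3% and 58.0%.

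COL4A1 ran from 15.0 to 1346 CPM in the EC cells with a median of 290.2, and from 0 to 117 CPM in the TB cells with a median of 0.394. Every EC cell had at least 10 CPM and 4 of 48 TB cells did, so the cell types overlapped only through those few TB cells. Mean COL4A1 was 326 ± 285 CPM in EC and 5.099 ± 18.6 CPM in TB, a ratio of 63.9, or 120 without TB cell 16, in which the gene had its TB maximum. COL4A2 ran from 1.07 to 628 CPM in EC with a median of 76.4, and from 0 to 187 CPM in TB with a median of 0.711. Its means were 109.9 ± 123 CPM and 11.8 ± 34.4 CPM, a ratio of 9.28, with 32 of 38 EC cells and 7 of 48 TB cells at 10 CPM or more.

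COL4A5 was found at similar means in both types, 70.5 ± 133 CPM in EC and 49.7 ± 61.2 CPM in TB. Its cells ran from 0 to 668 CPM in EC, with a median of 7.72, and from 0 to 237 CPM in TB, with a median of 25.6, so the mean was higher in EC and the median in TB. COL4A6 had a mean of 14.4 ± 37.7 CPM in EC and 17.8 ± 46.4 CPM in TB, with 6 of 38 and 13 of 48 cells at 10 CPM or more. Its median was 0 in EC and 0.577 CPM in TB, and the highest cells were at 139 and 225 CPM.

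The chains of COL4A1 and COL4A2 are joined in one trimer at a ratio of 2 to 1, and their genes are neighbours, so their levels were compared cell by cell. Per kilobase, COL4A1 was higher than COL4A2 in 26 of 38 EC cells, with a median ratio of 2.83, but the ratio of single cells ran from 0.109 to 384. Across EC cells the Spearman correlation between them was -0.19 (n = 38), and the median correlation of COL4A1 with all 11489 other genes at 1 CPM was -0.06. Across TB cells it was 0.42 (n = 48), the 34th highest of COL4A1 with 11898 genes, although 20 TB cells had counts of both. The cells of a type share their library pool and differ in depth, and EQ-Vary and EQ-75% gave 0.30 and 0.18 in TB and -0.19 and -0.14 in EC. The high rank in TB did not recur. COL4A2 had rank 563 of 11869 genes in EQ-Vary and 2103 of 11867 in EQ-75%.

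**Figure D2:**
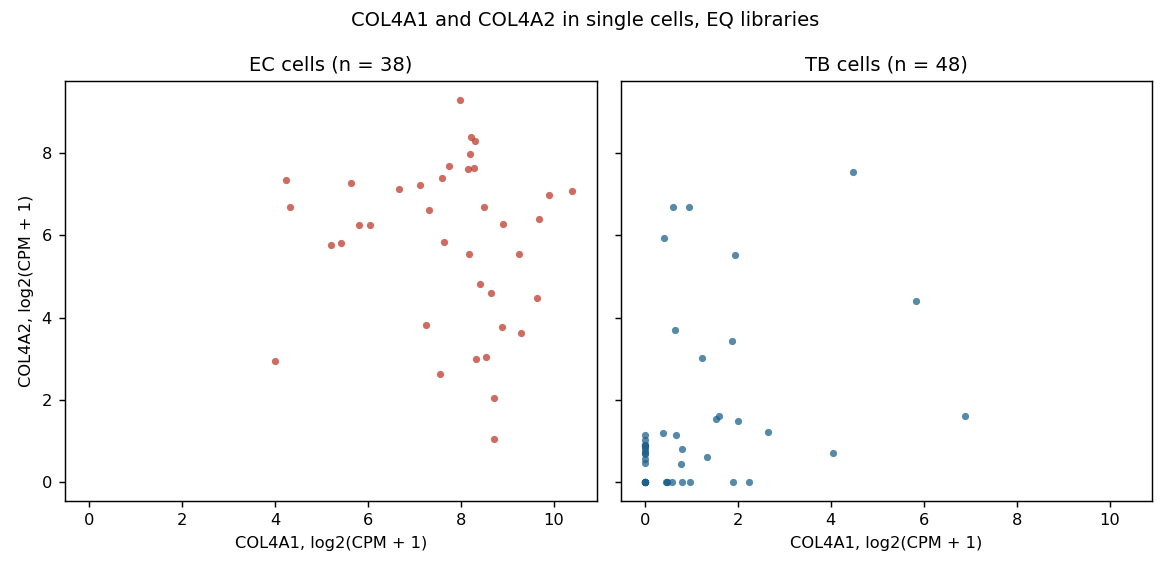
COL4A1 (horizontal) and COL4A2 (vertical) in single cells of the EQ libraries, as log2(CPM + 1), with EC on the left and TB on the right. EC cells lie between 1.07 and 628 CPM of COL4A2 with a Spearman correlation of -0.19 to COL4A1, and most TB cells lie near 0 for both.

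The fibrillar genes were the largest class in both types, at 1240 ± 841 CPM in EC and 1647 ± 861 CPM in TB, or 65.2% and 67.7% of the collagen counts. The class did not move in 1 direction. Of its 11 genes, COL27A1 and COL24A1 were higher in EC, COL1A1, COL2A1, COL3A1 and COL11A2 were higher in TB, 4 were not 4-fold apart, and COL5A3 was not detected.

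COL3A1, the chain of the type III homotrimer, was the gene that set the types apart most clearly. It ran from 75.4 to 1726 CPM in TB cells with a median of 696, and from 0 to 15.7 CPM in EC cells with a median of 1.57. It was the only one of the 31 collagen genes whose EC and TB cells did not overlap in EQ, where the background was 0.165% of 12751 genes. In EQ-Vary COL3A1 and COL12A1 did not overlap, 2 of 31 where the background was 0.204%, and in EQ-75% 0 of 30 did so, where it was 0.150%. The means were 735 ± 458 CPM and 2.41 ± 2.72 CPM, a ratio of 305.

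COL1A1 and COL1A2 encode the chains of type I collagen, which are joined at 2 to 1. COL1A1 ran from 5.18 to 1564 CPM in TB cells with a median of 187, and from 0 to 443 CPM in EC cells with a median of 0.953. It was at 10 CPM or more in 47 of 48 TB cells and 5 of 38 EC cells. The means were 279.8 ± 305 CPM and 21.8 ± 84.5 CPM, a TB to EC ratio of 12.9, which was 27.01 without EC cell 25. COL1A2, in contrast, ran from 10.96 to 3621 CPM in EC cells with a median of 677, and from 0 to 844 CPM in TB cells with a median of 246. Its means were 840.0 ± 757 CPM and 294 ± 218 CPM, a ratio of 2.86, with 17 of 38 EC cells above every TB cell. Among the 33 EC cells with counts of both, COL1A1 was never above COL1A2 per kilobase, and the median ratio was 0.00225. Among 47 TB cells the median ratio was 0.635, and COL1A1 was the higher in 17.

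The 5 EC cells with COL1A1 at 10 CPM or more had COL3A1 between 0.328 and 3.20 CPM. In EC cell 25 the 3 experiments gave 443, 444 and 258 CPM of COL1A1, and in EC cell 37 it was at 291 CPM in EQ. COL3A1 was at 1.11 and 0.328 CPM in these cells and COL12A1 was at 0 in both. The summed endothelial markers in cell 25 were 9363 CPM, above the EC mean of 5889, and its summed trophoblast markers were 146 CPM.

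The type V genes, whose product is a minor partner of type I fibrils, were in use in both types. COL5A2 ran from 2.99 to 1094 CPM in EC with a median of 182 and from 2.29 to 1208 CPM in TB with a median of 111. Its means were 269 ± 266 and 163 ± 207 CPM, a ratio of 1.65. COL5A1 ran from 0.756 to 529 CPM in EC with a median of 24.3 and from 0.432 to 591 CPM in TB with a median of 129.9, with means of 67.5 ± 112 and 145 ± 129.8 CPM. Both genes were detected in every passing cell of EQ.

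COL11A1, a type XI chain, had means of 15.2 ± 31.2 CPM in EC and 15.9 ± 43.4 CPM in TB, with medians of 1.69 and 1.15 CPM and highest cells of 161 and 241 CPM. COL27A1 had 21.9 ± 55.4 CPM in EC and 5.29 ± 15.9 CPM in TB, a ratio of 4.14, with cells from 0 to 290.4 and from 0 to 88.6 CPM and medians of 0.619 and 0. This ratio fell below 4 without any 1 of 3 EC cells, to 2.77 without EC cell 27, 3.37 without EC cell 33 and 3.76 without EC cell 36, and it was 6.22 without TB cell 14.

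**Figure D3:**
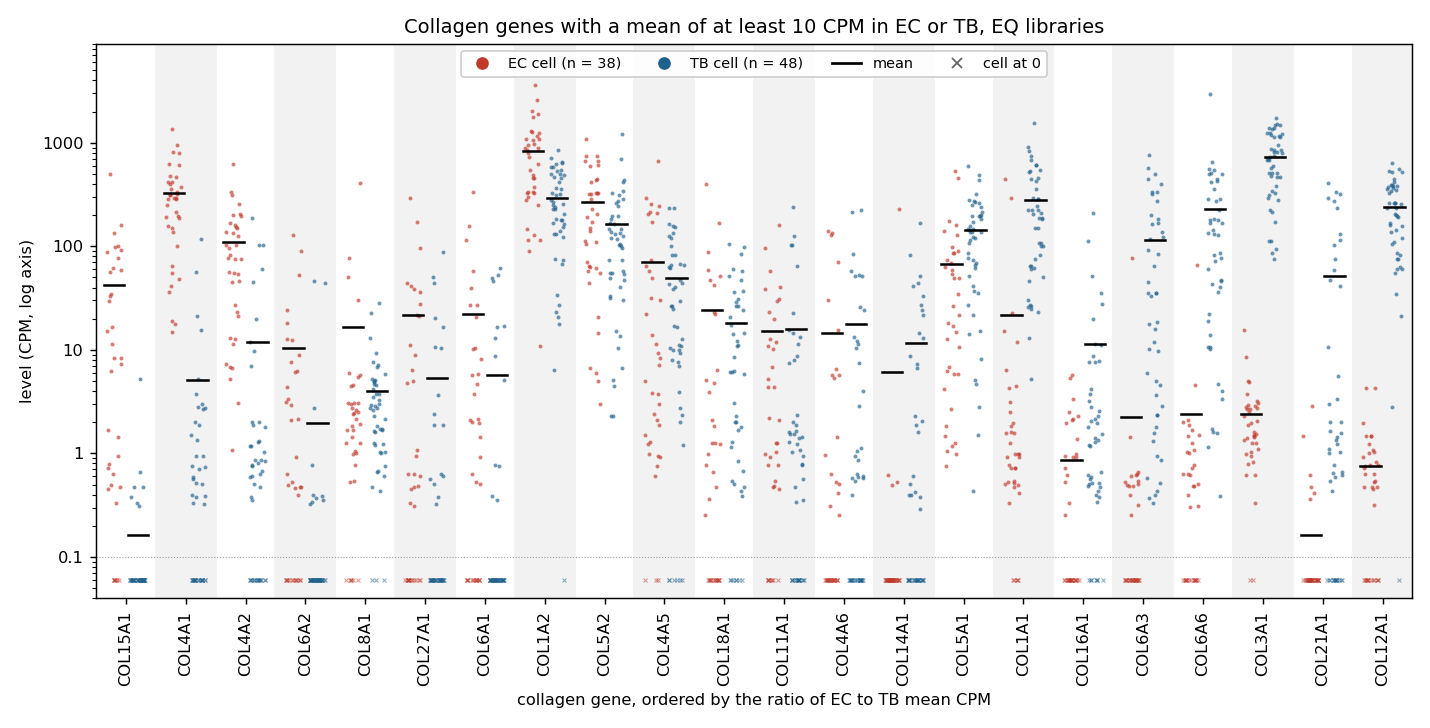
Level (CPM, log axis) of the 22 collagen genes with a mean of at least 10 CPM in each of 38 EC cells and 48 TB cells of EQ, ordered by the ratio of EC to TB means, with black bars at the means and crosses for cells at 0. COL3A1 has all TB cells above 75 CPM and all EC cells at or below 15.7 CPM, and in the other genes the types overlap.

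The FACIT and related genes were at 11.7 ± 40.2 CPM in EC and 321 ± 172 CPM in TB, which was 0.615% and 13.2% of the collagen counts. Of 10 genes, COL12A1, COL16A1, COL21A1 and COL9A3 were higher in TB, COL9A2 was higher in EC, 2 were not 4-fold apart and 3 stayed below 1 CPM. COL12A1, which binds type I fibrils, ran from 0 to 633 CPM in TB with a median of 219 and from 0 to 4.28 CPM in EC with a median of 0.534. Its means were 241 ± 165 and 0.751 ± 0.988 CPM, a ratio of 322, and 46 of 48 TB cells were above the highest EC cell.

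COL21A1 was high in a minority of TB cells. It ran from 0 to 411 CPM there with a median of 1.16, with 14 of 48 cells at 10 CPM or more, and from 0 to 2.85 CPM in EC with a median of 0. The means were 51.7 ± 106 and 0.163 ± 0.525 CPM, a ratio of 317, or 573 without EC cell 23. COL16A1 ran from 0 to 210.5 CPM in TB, with a median of 1.38, and from 0 to 5.75 CPM in EC, with a median of 0. Its means were 11.5 ± 34.5 and 0.871 ± 1.43 CPM, a ratio of 13.2, or 8.35 without TB cell 7.

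COL14A1 had similar means, 6.10 ± 37.3 CPM in EC and 11.6 ± 28.5 CPM in TB, that came from different numbers of cells. In EC, 99.3% of its summed level was that of EC cell 3, at 230.2, 234 and 240.3 CPM over the 3 experiments, and the next EC cell was at 0.622 CPM. In TB it ran from 0 to 167 CPM with a median of 0.331, with 11 of 48 cells at 10 CPM or more. Without EC cell 3 the TB to EC ratio was 259.

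The type VI genes, whose products form beaded microfibrils, were divided between the types. Their summed level was 37.01 ± 76.0 CPM in EC and 354 ± 531 CPM in TB. COL6A3 and COL6A6 were higher in TB, COL6A2 was higher in EC, and COL6A1 was not 4-fold apart. COL6A6 ran from 0.389 to 2974 CPM in TB with a median of 108, and from 0 to 65.7 CPM in EC with a median of 0.489. The means were 231 ± 445 and 2.40 ± 10.6 CPM, a ratio of 96.1, which was 335 without EC cell 19. COL6A3 ran from 0.335 to 761 CPM in TB with a median of 25.9 and from 0 to 77.6 CPM in EC with a median of 0. The means were 116 ± 177 and 2.25 ± 12.6 CPM, a ratio of 51.5, which was 539 without EC cell 35.

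EC cells 19 and 35 kept their values in the other experiments, which used the same cDNA. COL6A6 in EC cell 19 was at 65.7, 60.1 and 60.3 CPM, and COL6A3 in EC cell 35 was at 77.6, 89.5 and 95.7 CPM. Each gene was high in that 1 EC cell and at or below 4.56 and 1.43 CPM in the others.

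COL6A1 had means of 22.04 ± 60.9 CPM in EC and 5.70 ± 15.0 CPM in TB, a ratio of 3.87, with cells from 0 to 333 CPM around a median of 1.70 in EC and from 0 to 62.1 CPM around a median of 0 in TB. COL6A2 had 10.3 ± 26.2 and 1.99 ± 9.04 CPM, with cells from 0 to 129.8 CPM around a median of 0.585 in EC and from 0 to 45.8 CPM around a median of 0 in TB. Its ratio of 5.19 was 3.57 without EC cell 25 and 9.78 without TB cell 41. The COL6A1 ratio was 2.39 without EC cell 13, passed 4 without any 1 of 6 TB cells and was 4.90 without TB cell 35. The EC level of COL6A2 had a Spearman correlation of 0.60 with the total count of the cell (n = 38), where the median over all genes at 10 CPM was -0.01.

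The multiplexins COL15A1 and COL18A1 encode basement membrane collagens whose ends can be released as fragments. COL15A1 ran from 0 to 499 CPM in EC with a median of 7.84, and from 0 to 5.23 CPM in TB with a median of 0. Of 38 EC cells 21 were above every TB cell and 17 were at 10 CPM or more. The means were 42.3 ± 87.2 and 0.164 ± 0.763 CPM, a ratio of 258, which was 755 without TB cell 32. COL18A1 was at 24.5 ± 70.5 CPM in EC and 18.03 ± 26.1 CPM in TB, with cells from 0 to 399.6 and from 0 to 104 CPM. Its median was 0.887 CPM in EC and 6.16 CPM in TB, and without EC cell 5 the ratio of means went from 1.36 to 0.797. COL18A1 shares 1563 exon bases with SLC19A1 on the opposite strand. The strand setting of the counting is not given in the sources used here, so the reads of the pair may not be told apart, and the same holds for COL9A3 with TCFL5 (155 shared exon bases) and COL19A1 with LMBRD1 (85).

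COL8A1, the chain of a short-chain collagen of the vessel wall, had a mean of 16.7 ± 66.8 CPM in EC and 3.97 ± 5.26 CPM in TB, a ratio of 4.21. The cells ran from 0 to 408 CPM in EC and from 0 to 28.3 CPM in TB, and the medians of 2.02 and 2.66 CPM had the opposite order. EC cell 43 held 64.2% of the EC sum, and the ratio was 1.55 without it, 3.80 without EC cell 6 and 3.97 without EC cell 12. Of the nonzero expected counts of COL8A1, 98.7% were not whole numbers, where the median over the collagen genes was 28.6%. RSEM divides a read that matches several genes among them. Where the fractions of COL8A1 came from was not tested.

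Of the 9 genes between 1 and 10 CPM, COL7A1 (3.61 CPM in EC and 0.822 in TB), COL13A1 (2.75 and 0.0958), COL9A2 (1.27 and 0) and COL24A1 (1.26 and 0.0122) were called higher in EC. COL2A1 (0.460 CPM in EC and 6.21 in TB), COL9A3 (0.0131 and 2.98) and COL11A2 (0.0522 and 2.72) were called higher in TB. COL19A1 (2.51 and 1.35 CPM) and COL26A1 (2.33 and 1.01 CPM) were not 4-fold apart. These means came from few cells. COL19A1 and COL24A1 had counts in 1 EC cell each, EC cell 5. COL9A2 was detected in 7 of 38 EC cells and in 0 TB cells (n = 48), and against the level of 3 counts over all TB cells its EC mean was at least 40.9-fold higher. COL24A1 had 98 counts in EC and 1 in TB, a ratio per summed depth of 121 with an exact 95% interval from 21.2 to 4820, and COL9A3 had 310 counts in TB and 1 in EC, a ratio of 251 with an interval from 44.8 to 9964. These intervals cover counting error only.

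Leaving out 1 cell changed the call of 6 of these 9 genes. COL24A1 lost its call without EC cell 5, COL11A2 without TB cell 16, and COL9A2 without EC cell 4 or EC cell 39, in each case because the mean fell below 1 CPM. The COL7A1 ratio of 4.396 was 2.12 without EC cell 7, 2.94 without EC cell 35 and 18.3 without TB cell 23. COL19A1 was called higher in TB without EC cell 5 and higher in EC without TB cell 1, and COL26A1 was called higher in EC without TB cell 10, with a ratio of 15.2. The COL13A1 ratio of 28.7 was 16.3 without EC cell 35 and 88.6 without TB cell 16. The COL2A1 TB to EC ratio of 13.5 was 35.2 without EC cell 6 and 7.77 without TB cell 5.

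Below 1 CPM, COL4A3, COL4A4, COL9A1, COL17A1, COL22A1 and COL28A1 were detected in at most 5 cells of a type. The epidermal chain COL17A1 was detected in 3 EC cells and 0 TB cells, and COL4A4 in 0 and 3. A count of 0 over all TB cells allows up to 0.0311 CPM, and over all EC cells up to 0.0383 CPM, from counting error alone.

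An average of 16.8 ± 2.71 collagen genes was detected in an EC cell and 17.5 ± 2.13 in a TB cell of EQ, where detection means a rounded count of at least 1. This was 43.2% and 44.8% of the 39 genes, and 50.1% and 53.0% of all genes were detected. At 10 CPM or more the numbers were 7.45 ± 1.77 in EC and 10.3 ± 1.58 in TB, and the largest EC cell had 12 such genes and the smallest TB cell 8. This limit was chosen after seeing the data. The share of all genes at it is not given, so the difference is not read as particular to collagen genes. COL1A2, COL4A1, COL4A2, COL5A1 and COL5A2 were detected in every EC cell. COL1A1, COL3A1, COL5A1, COL5A2, COL6A3 and COL6A6 were detected in every TB cell.

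Detection at 1 count did not separate the types where the level did. COL3A1 was detected in 36 of 38 EC cells (94.7%, exact 95% binomial interval 82.3 to 99.4%) at a median of 1.57 CPM, and at 10 CPM or more in 1. COL1A1 was detected in 33 EC cells, COL12A1 in 25 and COL6A6 in 23, all with EC medians below 1 CPM. Low counts were also present for other genes with a large ratio between the types. Among 104 genes with a TB mean of at least 50 CPM and an EC mean at least 50-fold lower, which included 5 collagen genes, the EC mean was a median of 0.427% of the TB mean and the genes were detected in a median of 52.6% of EC cells. Among 109 genes chosen likewise in the other direction, COL4A1 among them, the values in TB were 0.299% and 50.0%. COL3A1 and COL12A1, 2 of the 5 collagen genes among the 104, lay in EC at 0.328% and 0.311% of their TB means. The 50-fold limit by itself keeps these percentages of the mean low, while the share of cells with a count was not part of the choice.

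These low counts recurred less closely in the same cells than high levels. Over the 37 EC cells that passed in both EQ and EQ-75%, the Spearman correlation between the experiments was 0.06 for COL3A1, 0.06 for COL12A1 and 0.40 for COL1A1, and the median over the 104 genes was 0.26. Between EQ and EQ-Vary it was 0.29, 0.36 and 0.55 for these genes (n = 38). For COL1A2 and COL4A1, which were high in EC, it was 0.99 for both between EQ and EQ-75%. Where the low counts came from was not tested, so shares of cells with 1 count are not read as expression here.

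High values did recur. The experiments share the cDNA of each cell, so this is repeatability of the steps after the cDNA and not of the culture. Only EQ-75% is described as a repeat of the EQ preparation, and EQ-Vary may share its libraries with EQ. When a cell was described by the deviations of its 39 collagen genes from the mean of its type, the EQ profile was closest to that of the same cell in EQ-75% in all 37 EC and all 47 TB cells compared. With EQ-Vary it was so in 37 of 38 EC cells and in all 46 TB cells. The 10 genes called higher in EC and the 10 called higher in TB in EQ were called in EQ-Vary as well. Of all genes tested in EQ-Vary, 10.9% were called higher in EC and 15.8% in TB. In EQ-75%, with 30 genes tested, the 10 TB calls were kept and 6 of the EC calls. Of all genes tested in EQ-75%, 16.4% were called higher in TB and 10.2% in EC. These are shares of genes called, and the share of EQ calls kept over all genes is not given here. The EC calls of collagen genes not kept were COL6A2 (a ratio of 3.83), COL7A1 (1.04), COL8A1 (1.93) and COL24A1, whose mean was below 1 CPM.

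Between EQ and EQ-75%, the means of some abundant collagen genes changed little in the cells passing in both, and those of others fell. In EC, COL1A2 in EQ-75% was at 97.6% of its EQ mean, COL4A1 at 97.5% and COL5A2 at 105%, while COL4A2 was at 84.1%, COL5A1 at 81.6%, COL1A1 at 65.7% and COL6A1 at 64.2%. In TB, COL3A1 was at 104%, COL12A1 at 103% and COL1A2 at 101%. COL1A1 in TB was at 80.9% and COL5A1 at 87.0%, while COL5A2 was at 107% and COL6A6 at 110%. The mean of COL8A1 over all passing TB cells was 3.97 CPM in EQ and 10.2 CPM in EQ-75%, where TB cell 48, which did not pass in EQ, held 60.3% of the sum. Over the 47 TB cells that passed in both it was 3.98 and 3.97 CPM.

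Fewer collagen genes were detected in EQ-75%, a repeat preparation at a lower depth, than in EQ. In the same EC cells the difference was 2.41 ± 2.49 genes (SD, n = 37), with more in EQ in 30 cells, as many in 3 and fewer in 4. In TB it was 0.915 ± 1.61 genes (SD, n = 47), with more in EQ in 28 cells. This was 14.1% of the collagen genes detected in EC in EQ and 5.22% of those in TB, where over all genes it was 7.72% and 3.55%. Depth fell more in EC than in TB. The median total count of the passing EC cells was 2025136.5 in EQ and 1499256 in EQ-75%. For TB it was 1968563 and 1765249. The EC and TB losses are therefore not at a like change of depth. After each pair of libraries was thinned to the smaller total count, the difference was 1.34 ± 2.42 genes in EC and 0.586 ± 1.46 in TB. Over all genes a difference also remained after thinning, 347 ± 175 genes in EC and 223 ± 158 in TB. Of 35 collagen genes detected in EC in either experiment, 23 were detected in fewer cells in EQ-75%, against a background of 59.6%, so the share of 65.7% was near that of all genes. In TB it was 18 of 35, against 49.2%. In EQ-Vary 15 of 35 collagen genes were detected in fewer EC cells than in EQ and 17 of 37 in fewer TB cells, against 43.8% and 39.7% of all genes, and 6 were detected in more cells of each type, against 20.8% in EC and 24.2% in TB.

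**Figure D4:**
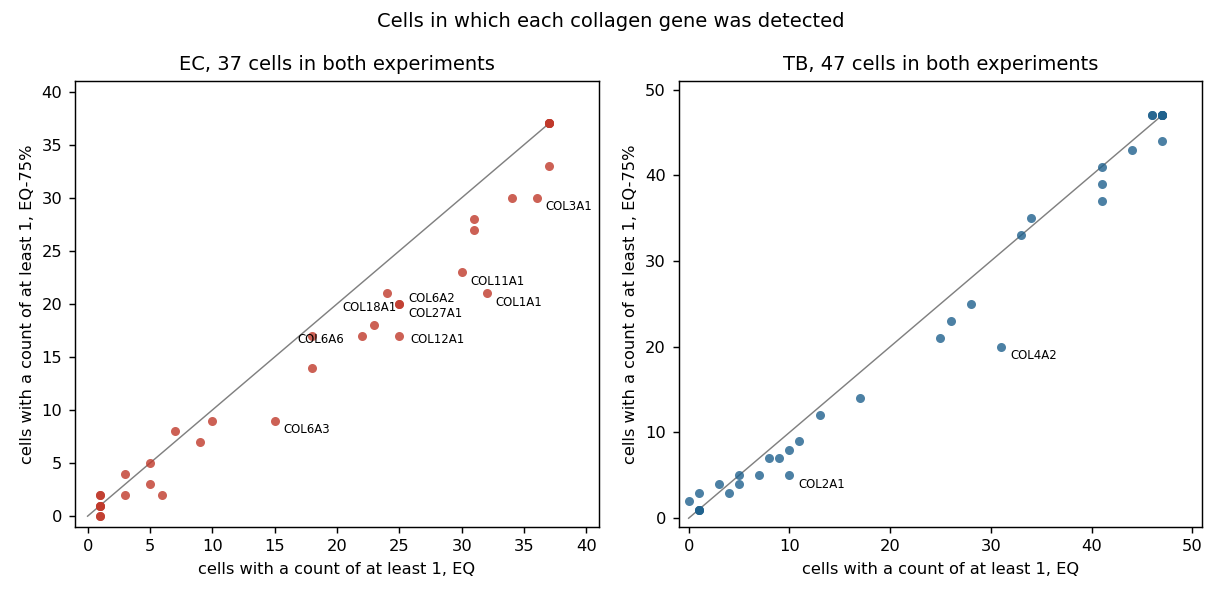
Number of cells with a rounded count of at least 1 for each collagen gene in EQ (horizontal) and EQ-75% (vertical), over the 37 EC cells and the 47 TB cells that passed in both, with the line of equal numbers. COL1A1 in EC (32 against 21 cells) and COL4A2 in TB (31 against 20 cells) lie farthest below the line.

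The genes that lost most detections were those with low counts in the cell type. COL1A1 was detected in 32 EC cells in EQ and 21 in EQ-75%, COL12A1 in 25 and 17, COL11A1 in 30 and 23, and COL3A1 in 36 and 30. In TB, COL4A2 was detected in 31 cells and 20, and COL2A1 in 10 and 5. The genes with the highest levels did not lose any: COL1A2, COL4A1, COL4A2 and COL5A2 were detected in 37 of 37 EC cells in both experiments.

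Most collagen genes varied more between cells of a type than the typical gene at a similar mean. The CV, the SD over cells divided by the mean, was set against a running median over genes of similar mean. In EC, 18 of 25 collagen genes were above it, and in TB 21 of 26, where 49.7% of all genes were above it in each type. Some of these values rest on 1 cell. COL19A1 and COL24A1, each with counts in 1 EC cell, had a CV of 6.16 in EC, and COL14A1 had 6.12. The numbers of genes above the trend were not recomputed without such cells. The median ratio of CV to trend was 1.19 in EC and 1.26 in TB. In TB, COL6A6 had a CV of 1.93 where the trend was 0.732, above 99.8% of all genes in that ratio. That CV was 1.095 without TB cell 9, which was at 2974 CPM where the next cell was at 651, and 1.14 in EQ-Vary, where TB cell 9 did not pass. COL1A1 in TB had 1.09 where the trend was 0.691. In EC, COL1A2 had a CV of 0.902 where the trend was 0.583. COL1A1 had 3.89 where it was 2.12, with EC cells 25 and 37 at 443 and 291 CPM. On the other side, COL12A1 in TB and COL4A2 in EC were below the trend, with ratios of 0.935 and 0.894, and COL18A1 in TB had 0.743. The lowest ratios were those of COL3A1 in EC, 0.316, and COL8A1 in TB, 0.416, both at means below 4 CPM. In EQ-75%, with TB cell 48 passing, the ratio of COL8A1 in TB was 1.71.

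**Figure D5:**
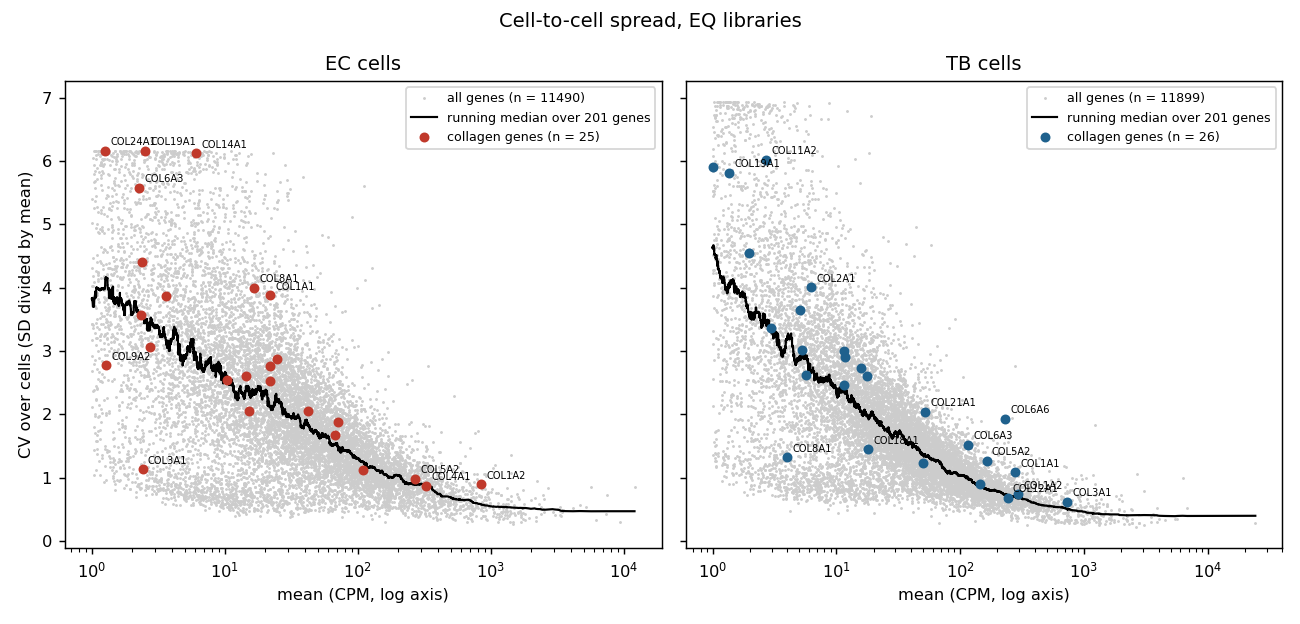
CV over cells (vertical) against mean level (horizontal, CPM, log axis) in EC and TB cells of EQ, with all genes at 1 CPM in grey, their running median as a line and the collagen genes in colour. In EC 18 of 25 and in TB 21 of 26 collagen genes lie above the line, and COL3A1 in EC and COL8A1 in TB lie far below it.

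Collagen genes were at most moderately correlated with each other across cells. Over the 105 pairs of collagen genes at 10 CPM in EC, the Spearman correlation had a median of -0.00 and ran from -0.45 (COL6A2 with COL27A1) to 0.48 (COL5A1 with COL6A1). Over the 120 pairs in TB the median was 0.03, and it ran from -0.51 (COL21A1 with COL4A5) to 0.44 (COL1A1 with COL4A5). No pair was above 0.5 in either type. The points are cells of 1 sample that share a library pool, and n is 38 and 48 cells. Chain partners gave 0.13 in EC and 0.24 in TB for COL1A1 with COL1A2, 0.10 and 0.28 for COL5A1 with COL5A2, and -0.23 and 0.01 for COL4A5 with COL4A6. COL6A1 with COL6A2 gave 0.26 in EC, and in TB only 5 cells had counts of both and the sign differed between the experiments, at 0.19 in EQ and -0.05 in EQ-75%. COL1A1 with COL3A1 gave 0.35 in TB, where all 48 cells had counts of both. COL1A1 with COL6A6 gave -0.46 in TB, and COL21A1 with COL6A6 gave 0.35. The correlation of the summed collagen level with the summed mesenchymal list was 0.19 in EC and -0.01 in TB, and with the total count it was -0.10 and -0.29.

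The other genes of collagen production were taken as lists. Of 43 genes tested in 5 lists, 10 were at least 4-fold higher in EC, or 23.3% against a background of 10.8%, and 5 were higher in TB, or 11.6% against a background of 16%. The other 28 were not 4-fold apart. Leaving out 1 cell ended the call of 2 of the 10 EC genes and 1 of the 5 TB genes, and gave an EC call to 3 of the 28.

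Collagen chains are hydroxylated and glycosylated in the endoplasmic reticulum, and there 3 of 12 genes were higher in EC, COLGALT1 (857 ± 531 CPM in EC and 146 ± 161 in TB), P4HA2 (121 ± 210.1 and 21.3 ± 68.6) and P3H3 (23.97 ± 56.4 and 2.22 ± 8.81). The P3H3 ratio of 10.8 was 24.5 without TB cell 24. COLGALT2 was called higher in TB, at 0.00833 and 1.75 CPM, but its TB median was 0, and without TB cell 51, at 51.2 CPM, its TB mean was 0.695 CPM, below the minimum for a call. The median ratio of the 12 genes was 1.06 on the log2 scale. None of the 11 genes of folding and export was 4-fold apart. SERPINH1, the collagen chaperone HSP47, was at 186 ± 188 CPM in EC and 52.1 ± 48.7 CPM in TB, a ratio of 3.58, and HSPA5 was at 587 ± 727 and 1226 ± 894 CPM. FKBP10 had a ratio of 3.60, which was 4.29 without TB cell 17 and 4.01 without TB cell 50.

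Of 6 genes of procollagen processing, 2 were called in each direction and 2 were not 4-fold apart. The EC calls of TLL1 and ADAMTS3 rested on 1 or 2 EC cells. The TLL1 ratio of 11.4 was 2.90 without EC cell 36, and the ADAMTS3 ratio of 6.57 was 2.79 without EC cell 19 and 3.998 without EC cell 9. BMP1 and ADAMTS2 were higher in TB. ADAMTS2, which removes the amino-terminal propeptide of fibrillar chains, was at 1.95 ± 3.01 CPM in EC and 22.4 ± 57.5 CPM in TB. BMP1, which removes the carboxy-terminal one, was at 2.08 ± 10.2 and 13.7 ± 42.1 CPM, a TB to EC ratio of 6.57 that was 31.5 without EC cell 28.

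Of 5 cross-linking genes, 3 were higher in EC and 0 in TB. TGM2 was at 190.1 ± 303 CPM in EC and 34.3 ± 88.5 CPM in TB. LOXL3 was at 19.2 ± 82.8 and 0.00810 CPM, with an EC median of 0, and its EC mean was 7.22 CPM without EC cell 19. LOXL1 was at 1.81 ± 5.42 and 0.00979 CPM, and its EC mean was 1.14 CPM without EC cell 9. LOXL2 was at 82.3 ± 122 and 22.3 ± 50.1 CPM, a ratio of 3.69, which passed 4 without any 1 of 3 TB cells and was 4.84 without TB cell 42. LOX was at 2.43 and 3.28 CPM, and without TB cell 10, at 153 CPM, its EC to TB ratio was 25.8.

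Of 9 collagen receptor genes tested, 2 were higher in EC, 2 in TB and 5 were not 4-fold apart. The integrin chains ITGA10 (84.0 ± 200.3 CPM in EC and 0.0606 in TB) and ITGA1 (36.7 ± 69.4 and 1.94 ± 5.54) were higher in EC, and the receptor kinases DDR1 (0.0361 and 14.3 ± 25.1) and DDR2 (0.0224 and 7.37 ± 18.4) were higher in TB. Among the others, the integrin beta chain ITGB1 was at 1420 ± 619 CPM in EC and 674 ± 472 CPM in TB, and ITGA2 at 45.3 ± 74.8 and 48.5 ± 137 CPM. The EC to TB ratios of GP6, OSCAR and LAIR1, receptors of blood cells, were 1.33, 0.908 and 1.34.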

How the data were processed

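Single-cell RNA-seq of H1-derived EC and TB cells was analysed from 288 libraries, 96 cells in each of 3 experiments. The deposited values are expected counts per gene, which the authors obtained with RSEM (v1.2.31) calling Bowtie (v1.2.3) on 51 base reads, with at most 2 mismatches, against protein-coding Ensembl genes of GRCh38. CASAVA (v1.8.2) is named in the submitters' processing notes, and the strand setting is not given in the sources used here. The expected counts were rounded to whole numbers. Cells with a log10 total count of at least 5.4 and at most 31% of counts in their 50 most abundant genes were kept, which are the limits of the study. The study removed doublets and dead cells by their images in an earlier experiment on the same cells, and no doublet caller was run.

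CPM, detection (a rounded count of at least 1), ratios of mean CPM, CV and Spearman correlations were computed with Python (v3.11.15), pandas (v2.3.3), numpy (v2.4.6) and scipy (v1.17.1), and scran (v1.30.0) size factors in R (v4.3.3) were an alternative. With 1 sample per cell type no test across samples could be made, and binomial and count intervals (95%, exact) cover counting error only. The reads carry no molecular identifiers. Every collagen gene with a mean of at least 10 CPM in EC or TB was described, and the others by counts. The collagen genes and the gene lists were chosen with earlier results of these data known. Levels per kilobase used GENCODE v44 transcripts, to which all 39 collagen genes matched by Ensembl ID. Promoter sequences are those of RefSeq on GRCh38, which held 28 of the 39 genes. The 4-fold calls, the CV trend and the thinning were tested on simulated counts. The correlations, the orders per kilobase and the leaving out of cells were not. Libraries of the same cell in different experiments were paired by cell number, since they were made from the same stored cDNA. Every cell passing in both EQ and EQ-75% was most like its own number, with a correlation of at least 0.872.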

Additional observations from a re-analysis of the deposited data

How the results depend on the processing

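The calls of 4-fold ratios in EC depended on the setting. Against 10 collagen genes, 6 were called in EQ-75%, 6 with 10% trimmed means and 6 with a minimum of 10 CPM. The share of all genes called in EC was 10.8% in EQ and 10.2% in EQ-75%. It is not given for trimmed means or the higher minimum, so those lower counts are not read as particular to collagen genes. Leaving out each cell in turn gave 9 to 11 in EC and 9 to 11 in TB. These totals hide which genes changed. For 6 of the 10 EC genes and 1 of the 10 TB genes, leaving out a single cell ended the call. The 6 were COL6A2, COL7A1, COL8A1, COL9A2, COL24A1 and COL27A1. With trimmed means TB had 8 calls, and calls were gained by COL6A1 in EC and COL14A1 in TB. The means of COL8A1, COL7A1, COL24A1, COL13A1 and COL9A2 rest on few EC cells. The number detected per cell was 10.2 in EC and 12.6 in TB at 5 counts or more, 10.9 and 12.9 after thinning to 250000 counts, and 7.45 and 10.3 at 10 CPM or more, a limit chosen after seeing the data. The COL4A1 and COL4A2 correlation in TB was 0.30 in EQ-Vary and 0.18 in EQ-75%, against 0.42. Without pairing the cells by number (no replicate block), EQ minus EQ-75% was 2.25 genes in EC and 0.998 in TB, against 2.41 and 0.915 when paired. Leaving out cells for the other genes of collagen production was added after seeing the data. The causes were not tested. Of the other values for these results, 80 stayed within the spread or within 1.5 times. For the summed levels and the genes detected per cell that spread is the SD over cells, a wide limit. Most of these results are counts or sums, which cannot change sign, so no direction is read from them. EC and TB are 1 sample each, so culture, capture and cell type cannot be told apart.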
